A study of Mus musculus with 2 samples.

Results

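The BMP and activin ligands and antagonists form a group of 10 genes that was examined in single cells of the mouse femur. The ligand genes were *Bmp2*, *Bmp4*, *Bmp6*, *Bmp7*, *Gdf5* and *Inhba*, and the antagonist genes were *Grem1*, *Nog*, *Chrd* and *Chrdl1*. They were chosen by symbol, and all 10 were found among the 32285 genes of the count matrices. The cells came from male C57BL/6J mice aged 7 weeks that were either untreated or given calcitriol, the hormonal form of vitamin D, as 3 daily intravenous injections of 2.5 μg/kg. The bones were collected 24 h following the last dose and their ends were removed. The marrow was flushed out, the bone was digested with collagenase and EGTA, and cells bearing CD45, the common surface protein of white blood cells, were depleted. Cells of 6 mice were pooled into 1 library per group, so no difference between the groups has a replicate check and no p-value is given. No vehicle injection is described for the untreated mice. The effect of calcitriol, that of the injections, and any difference between the pools of animals, the digestions or the libraries cannot be told apart.

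BMPs are secreted dimers that bind type I and type II serine/threonine kinase receptors and act through Smad1, Smad5 and Smad9, whereas activins act through Smad2 and Smad3. The antagonists are secreted proteins that keep ligands from their receptors. In the skeleton, ligands and antagonists together govern cartilage growth, joint formation and the making and repair of bone.

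The untreated library held 6076 barcodes and 70266983 unique molecular identifiers (UMIs, each counting 1 captured mRNA molecule), and the calcitriol library held 4562 barcodes and 60392557 UMIs. After filtering, 4436 and 3693 cells remained, with medians of 10989.5 and 12258 UMIs, and they formed 24 clusters. The libraries shared 8 barcodes, of which 2 were kept. Haemoglobin genes took 41.2% of all UMIs in the untreated and 10.6% in the calcitriol library. Clusters were named from marker genes with the ending "-like", and 11 types with at least 30 cells in each library were compared. These were osteocyte-like cells, *Bglap*-high and *Postn*-high osteoblast-like cells, growth plate and superficial articular chondrocyte-like cells, a chondrocyte-like cluster led by *Chil1* and *Notum* (*Notum*-rich below), and tendon-, fibroblast-, smooth muscle-, endothelial- and erythroid-like cells. Of the 10 genes, 8 (all but *Bmp4* and *Chrd*) were among the 2000 genes used to cluster the cells, and *Inhba* was among the 10 leading genes of the superficial articular cluster. With all genes of the pathway left out of the clustering, 10 of 10 kept the type in which they were highest.

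Levels are given in CPM, the UMIs of a gene per 1000000 UMIs of the same cells, with exact 95% intervals that cover counting error only. Differences between the groups are given as the log2 ratio of CPM, calcitriol over untreated. A ratio is called past 2-fold when its size is at least 1 and the gene had at least 20 UMIs in the type. Each UMI comes from the 3′ end of a transcript and is counted once whatever the transcript's length, so levels are set side by side between genes. In erythroid-like cells, which should lack these genes, the 10 genes lay between 0 and 1.46 CPM.

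Promoter sequence is shown for 3 genes on which the results turn. *Bmp4* and *Grem1* were past 2-fold in the type where they were highest over both libraries, a type picked with calcitriol values included. *Inhba* had the highest level of the 10 genes in any type of the untreated library. The 250 bases before the RefSeq start site (GRCm38.p6) lie at chr14:46390670-46390919 on the minus strand for *Bmp4*, chr2:113758649-113758898 on the minus strand for *Grem1* and chr13:16011601-16011850 on the plus strand for *Inhba*. Capitals mark matches on either strand. The letters searched were TATAAA for the TATA box and, for the GC box, GGGCGG. The cyclic AMP response element was searched as TGACGTCA. A nuclear receptor half-site was AGGTCA or, in its other spelling, GGTTCA. The longer DR3 element was searched as [AG]G[GT]TCA, 3 bases of any kind and [AG]G[GT]TCA, which allows more spellings than the half-site.
Bmp4: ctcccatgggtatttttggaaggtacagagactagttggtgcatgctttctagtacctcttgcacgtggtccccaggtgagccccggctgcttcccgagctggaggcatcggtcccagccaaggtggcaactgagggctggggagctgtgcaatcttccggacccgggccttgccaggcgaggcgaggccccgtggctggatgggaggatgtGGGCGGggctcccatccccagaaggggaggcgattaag
Grem1: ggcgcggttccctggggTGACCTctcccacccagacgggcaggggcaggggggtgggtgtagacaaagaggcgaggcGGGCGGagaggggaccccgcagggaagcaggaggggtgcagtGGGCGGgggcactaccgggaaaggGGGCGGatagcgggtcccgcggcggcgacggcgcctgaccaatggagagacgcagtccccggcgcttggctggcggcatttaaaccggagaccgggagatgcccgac
Inhba: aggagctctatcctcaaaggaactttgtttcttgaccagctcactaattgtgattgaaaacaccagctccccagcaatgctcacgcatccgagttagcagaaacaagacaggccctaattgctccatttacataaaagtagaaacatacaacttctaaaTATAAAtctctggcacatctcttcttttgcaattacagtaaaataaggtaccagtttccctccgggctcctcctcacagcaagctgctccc
The *Bmp4* window held 1 GC box, the *Grem1* window held 3 GC boxes and 1 half-site, and the *Inhba* window held 1 TATA box. The GC content was 63.2% for *Bmp4*, 72.0% for *Grem1* and 43.2% for *Inhba*. Of 32817 promoter windows of the same length, 32.7% held a GC box, 12.4% a TATA box, 21.5% a half-site and 1.55% the cyclic AMP element. The DR3 element, a pair of half-sites of the wider spelling in the spacing that the vitamin D receptor is known to bind, was in 0.0396% of all windows. It was in none of the 3 shown. These matches describe letters in the windows only.

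**Figure D1:**
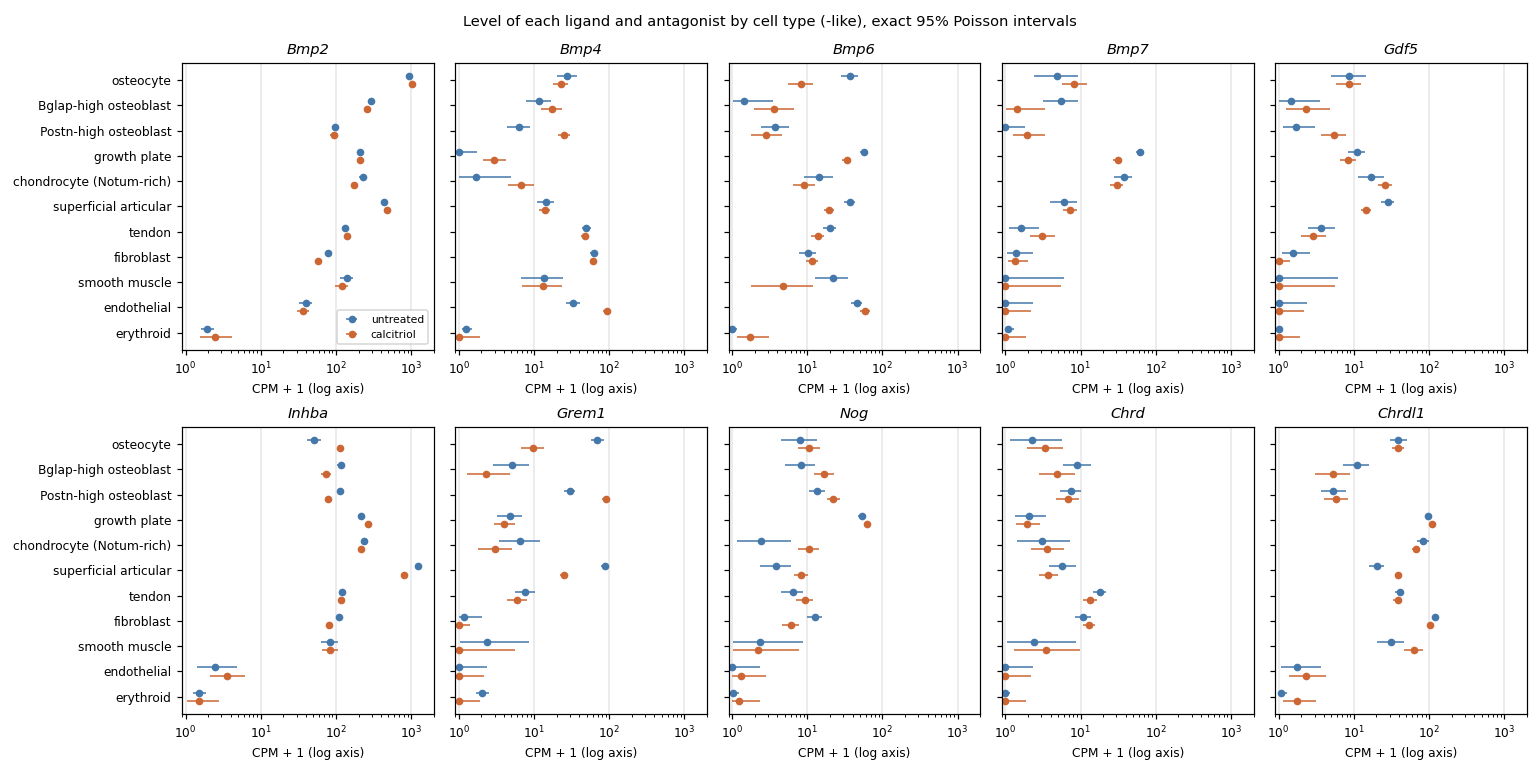
Level of each gene (CPM + 1, log axis) in the 11 compared cell types, untreated in blue and calcitriol in orange, with exact 95% Poisson intervals as bars. *Bmp2* peaks in osteocyte-like cells at 936 and 1023 CPM and *Inhba* in superficial articular chondrocyte-like cells at 1219.6 and 811 CPM, while the 10 genes are at 1.46 CPM or less in erythroid-like cells.

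*Bmp2* (chromosome 2, 133552159 to 133562885, plus strand, GRCm38) encodes a ligand that drives progenitors toward bone and cartilage. It was highest in osteocyte-like cells in both libraries, at 936 CPM (889 to 985) untreated and 1023 CPM (988 to 1060.2) with calcitriol. A UMI was found in 84 of 96 untreated and 186 of 216 calcitriol osteocyte-like cells, or 87.5% and 86.1%. Thinning, here and below, took cells with at least 2000 UMIs down to 2000 and left out shallower cells. After it the shares were 66.3% and 59.3%. The background was low, since 0.650% and 1.38% of erythroid-like cells had a UMI at median depths of 10427 and 9865 UMIs, against 12822 and 11550 UMIs in osteocyte-like cells.

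Superficial articular chondrocyte-like cells came second for *Bmp2*, at 439 and 479 CPM, and *Bglap*-high osteoblast-like cells followed, at 294 and 257 CPM. The intervals of these first 3 types did not overlap in either library. Growth plate cells (206 and 210.3 CPM) and *Notum*-rich chondrocyte-like cells (226 and 175 CPM) were next, with overlapping intervals untreated. Smooth muscle-like (139 and 119 CPM) and tendon-like cells (129 and 139 CPM) lay below these. The lowest levels outside the erythroid-like cells were in *Postn*-high osteoblast-like (95.8 and 92.5 CPM), fibroblast-like (77.6 and 56.8 CPM) and endothelial-like cells (38.7 and 35.8 CPM). *Bmp2* was the most widespread of the 10 genes and was past 2-fold in 0 of 11 types. In osteocyte-like cells 11.8% of all genes were past 2-fold in either direction, and the log2 ratio of *Bmp2* there was 0.13 (0.04 to 0.22).

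The lead of the osteocyte-like cells depended on how the cells were divided and named. At resolution 1.2 the cluster that kept the name had 24 untreated cells, too few to compare, and *Bglap*-high osteoblast-like cells led in both libraries. With 20 principal components a cluster of 319 cells led by *Mepe* and *Dmp1* stayed unnamed, and superficial articular chondrocyte-like cells led.

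The osteocyte-like cluster was not uniform, yet *Bmp2* was high in each of its divisions. At a finer resolution it split into 92 cells rich in *Dmp1* (10592 CPM), a matrix gene of osteocytes, 176 cells rich in *Ibsp* (27338 CPM), a gene of mineralizing cells, and 44 cells rich in *Col10a1* (14706 CPM), the collagen of hypertrophic cartilage. These 44 cells fell in the same finer cluster as 143 growth plate chondrocyte-like cells, which held *Col10a1* at 10732 CPM. *Bmp2* stood at 1149, 994 and 834 CPM in the *Dmp1*-, *Ibsp*- and *Col10a1*-rich cells. In the same order, *Mepe* stood at 4555, 11.3 and 92.7 CPM and *Phex* at 1765, 53.9 and 129 CPM. *Dmp1* was at 456 CPM in the *Ibsp*-rich and 241 CPM in the *Col10a1*-rich cells. The osteocyte genes thus lay mainly in the *Dmp1*-rich cells, and the *Bmp2* level of osteocyte-like cells is that of a mixed cluster. Sorted by how many of the osteocyte genes *Dmp1*, *Mepe* and *Phex* had a UMI, *Bmp2* was at 1071 CPM in the 113 cells with 2 or 3, 1052 CPM in the 78 cells with 1 and 875 CPM in the 121 cells with none. The 8 cells with a UMI of *Fgf23*, the phosphate-regulating hormone of osteocytes, were all from the calcitriol library, and all 8 held *Bmp2*, at 1495 CPM (1332 to 1672). Although the level was highest there, osteocyte-like cells carried 21.7% and 24.2% of the *Bmp2* UMIs of all kept cells. Superficial articular chondrocyte-like cells, with 227 and 618 cells, carried 23.3% and 37.4%. Such shares, here and below, depend on how many cells of each type were recovered, and the study states that few osteocytes were isolated. They do not give the part of each type in the femur.

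*Bmp4* (chromosome 14, 46383520 to 46390669, minus strand) encodes a close relative of BMP2. In the untreated library it was highest in fibroblast-like cells, at 61.6 CPM (55.1 to 68.6), followed by tendon-like cells at 48.8 CPM (42.8 to 55.5), whose interval overlapped, and endothelial-like cells at 32.4 CPM (26.0 to 40.0), whose interval did not. In the calcitriol library endothelial-like cells led at 92.2 CPM (81.8 to 103), above fibroblast-like cells at 60.3 CPM (55.3 to 65.7) and tendon-like cells at 46.7 CPM (41.5 to 52.4), with no overlap. The log2 ratio was -0.03 in fibroblast-like and -0.06 in tendon-like cells. With every cell given equal weight, endothelial-like cells led in both libraries, so the change of order was lost. Fibroblast-like cells still carried the most *Bmp4* UMIs, 39.4% and 35.3%.

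The log2 ratio of *Bmp4* in endothelial-like cells was 1.51 (1.16 to 1.87), from 88 UMIs in 52 of 257 cells to 286 UMIs in 90 of 305 cells. Without the cell with the most UMIs in each library it was 1.46. In endothelial-like cells 7.61% of all genes were past 2-fold, 3.32% being higher with calcitriol, and *Bmp4* was the only one of the 3 genes with enough UMIs that was. The difference was present in more than 1 endothelial cluster. In the cluster led by *Selp* and *Plvap* the level was 57.8 and 135 CPM, a log2 ratio of 1.22 (0.74 to 1.72). In the cluster led by *Flt1* and *Fabp4* it was 33.7 and 118 CPM, a log2 ratio of 1.81 (1.27 to 2.39). In the cluster led by the lymphatic genes *Ccl21a* and *Lyve1* it was 2.49 and 5.92 CPM, with too few UMIs for a call.

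With every cell given equal weight, the log2 ratio of *Bmp4* in endothelial-like cells was 0.83, which is not past 2-fold. The share of endothelial-like cells with a UMI was 20.2% and 29.5%, or 7.04% and 13.5% after thinning. The thinned shares leave out cells under 2000 UMIs, and the *Selp* cluster had a median of 2361 UMIs. Markers of superficial articular chondrocytes summed to 400.4 and 2245 CPM in these cells, 3 of 5 being past 2-fold higher, and haemoglobin summed to 27355 and 6020.3 CPM. The 8 endothelial markers themselves summed to 5853 and 5627 CPM, with none past 2-fold. *Bmp4* stood at 13.4 and 12.9 CPM in superficial articular chondrocyte-like, 61.6 and 60.3 CPM in fibroblast-like and 48.8 and 46.7 CPM in tendon-like cells. The part of transcripts from other types in the *Bmp4* value of endothelial-like cells was not tested.

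*Bmp4* was also past 2-fold in *Postn*-high osteoblast-like cells, at 5.24 CPM (3.32 to 7.87) and 24.2 CPM (19.8 to 29.3). The log2 ratio was 2.21 (1.55 to 2.93), or 2.24 without the top cells, and the UMIs were spread over 17 of 241 and 48 of 221 cells. In these cells 9.23% of all genes were past 2-fold. In *Notum*-rich chondrocyte-like cells *Bmp4* went from 1 to 20 UMIs, the latter spread over 11 cells with at most 4 each. Without the top cells 0 and 16 UMIs were left, under the minimum of 20 for a call, a log2 ratio of at least 1.13. In osteocyte-like cells the level was 26.8 and 21.6 CPM, most of it in the *Dmp1*-rich cells at 137 and 58.3 CPM. Growth plate chondrocyte-like cells had 0 UMIs in 140 untreated cells, which allows up to 0.625 CPM, and 15 UMIs in 236 calcitriol cells.

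*Bmp6* (chromosome 13, 38345107 to 38500302, plus strand) encodes a ligand best known for its production by liver endothelium in the control of iron. In the untreated library growth plate chondrocyte-like cells stood at 55.0 CPM (48.6 to 62.1) and endothelial-like cells at 44.2 CPM (36.7 to 52.9), with overlapping intervals. With calcitriol endothelial-like cells led at 58.0 CPM (49.8 to 67.1), above growth plate cells at 32.2 CPM (28.3 to 36.5), without overlap. Superficial articular chondrocyte-like cells held 35.6 and 18.5 CPM. The endothelial clusters were unlike for *Bmp6*, with 87.1 and 112 CPM in the *Flt1* cluster and 23.4 and 9.22 CPM in the *Selp* cluster. *Bmp2* differed among them as well, at 8.91 and 45.3 CPM in the *Flt1* cluster and 96.8 and 54.2 CPM in the *Selp* cluster, so that its even level over all endothelial-like cells joined a higher and a lower value.

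Of 8 types with enough UMIs, *Bmp6* was past 2-fold in osteocyte-like cells, at 35.7 and 7.30 CPM, a log2 ratio of -2.29 (-3.07 to -1.55) and of -2.06 without the top cells. Of its 56 untreated UMIs there, 49 lay in 12 of the 18 *Col10a1*-rich cells, and the *Dmp1*-rich cells had 4.41 and 4.57 CPM. The *Col10a1*-rich cells grouped with growth plate chondrocyte-like cells at the finer resolution. They were 18 of 96 untreated and 26 of 216 calcitriol cells, and within them *Bmp6* was 90.2 and 25.6 CPM. Markers of hypertrophic cartilage summed to 12198 and 3205 CPM in osteocyte-like cells and osteocyte markers to 2825 and 6227 CPM. The part of this difference in makeup in the *Bmp6* value was not tested.

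*Bmp7* (chromosome 2, 172868012 to 172940321, minus strand) encodes osteogenic protein 1 and was found mainly in cartilage types. Growth plate chondrocyte-like cells carried 74.4% and 52.6% of its UMIs, at 60.0 CPM (53.3 to 67.4) and 30.1 CPM (26.4 to 34.3). *Notum*-rich chondrocyte-like cells were next at 36.4 and 29.1 CPM, below the growth plate untreated and with an overlapping interval with calcitriol. The other compared types were at 7.30 CPM or less, and no UMI was found in the endothelial-like or smooth muscle-like cells. After thinning, *Notum*-rich cells led with calcitriol. With clusters past any quality limit left out, a type named chondrocyte-like led in both libraries. The log2 ratio in growth plate cells was -0.99 (-1.25 to -0.74), just inside 2-fold, and it passed 2-fold with haemoglobin and mitochondrial genes left out of the totals. In growth plate chondrocyte-like cells 10.1% of all genes were past 2-fold, and none of the 8 genes with enough UMIs was.

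*Gdf5* (chromosome 2, 155941023 to 155945367, minus strand), a ligand of the embryonic joint zone, was low and was highest in cartilage types. In the untreated library superficial articular chondrocyte-like cells led at 27.3 CPM (22.1 to 33.2), and *Notum*-rich chondrocyte-like cells followed at 16.1 CPM (10.2 to 24.1), with overlapping intervals. In the calcitriol library the order was the opposite, at 13.5 CPM (11.3 to 15.9) and 25.1 CPM (20.1 to 31.0), without overlap. After thinning, *Notum*-rich cells led in both libraries, so the change of order was lost. The log2 ratio was -1.02 (-1.41 to -0.63) in superficial articular cells, and -0.95 without the top cells, which is not past 2-fold. In *Notum*-rich cells it was 0.64 (-0.03 to 1.37) and turned to -0.70 after thinning to 2000 UMIs. Growth plate and osteocyte-like cells held 10.0 and 7.37 CPM and 7.64 and 7.63 CPM. In *Postn*-high osteoblast-like cells *Gdf5* was past 2-fold with 3 and 19 UMIs, but 16 of the 19 lay in 1 cell.

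*Inhba* (chromosome 13, 16011851 to 16031621, plus strand) encodes the βA subunit, whose dimer is activin A. Superficial articular chondrocyte-like cells led in both libraries, at 1219.6 CPM (1184 to 1256) and 811 CPM (793 to 828), and carried 55.1% and 60.0% of its UMIs. The log2 ratio there was -0.59 (-0.64 to -0.54), within 2-fold. *Notum*-rich chondrocyte-like cells (237 and 216 CPM) and growth plate cells (214 and 269 CPM) came next. Their intervals overlapped untreated, and growth plate cells were above with calcitriol. Without the top cells, *Notum*-rich cells stood at 135 and 154 CPM, below growth plate cells at 178 and 220 CPM in both libraries. *Inhba* was unevenly spread among the superficial articular cells. It was found in 51.1% and 36.9% of them, or 35.4% and 22.1% after thinning, whereas *Bmp2*, at a lower level, was found in 83.7% and 77.8%. Tendon-like (119.6 and 116 CPM), fibroblast-like (111 and 79.8 CPM) and smooth muscle-like cells (82.8 and 82.3 CPM) held intermediate levels. Endothelial-like cells held 1.47 and 2.58 CPM.

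*Inhba* was past 2-fold in osteocyte-like cells, at 50.3 CPM (39.8 to 62.7) and 114 CPM (102 to 127), a log2 ratio of 1.18 (0.82 to 1.55) and of 1.31 without the top cells. A UMI was found in 17 of 96 untreated and 39 of 216 calcitriol cells, and the top cells held 26 of 79 and 90 of 343 UMIs. The *Col10a1*-rich cells, which grouped with growth plate cells at the finer resolution, held 219 of the 343 calcitriol UMIs, at 107 and 401 CPM. The *Dmp1*-rich cells stood at 17.6 and 104 CPM and the *Ibsp*-rich cells at 21.3 and 20.7 CPM, so that the difference was absent from the most numerous cells of the cluster. The *Dmp1*-rich values rested on 4 UMIs in 2 of 24 untreated cells and 91 UMIs in 7 of 68 calcitriol cells. In *Bglap*-high osteoblast-like cells *Inhba* had a log2 ratio of -0.68, which was -1.22 without the top cells.

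**Figure D2:**
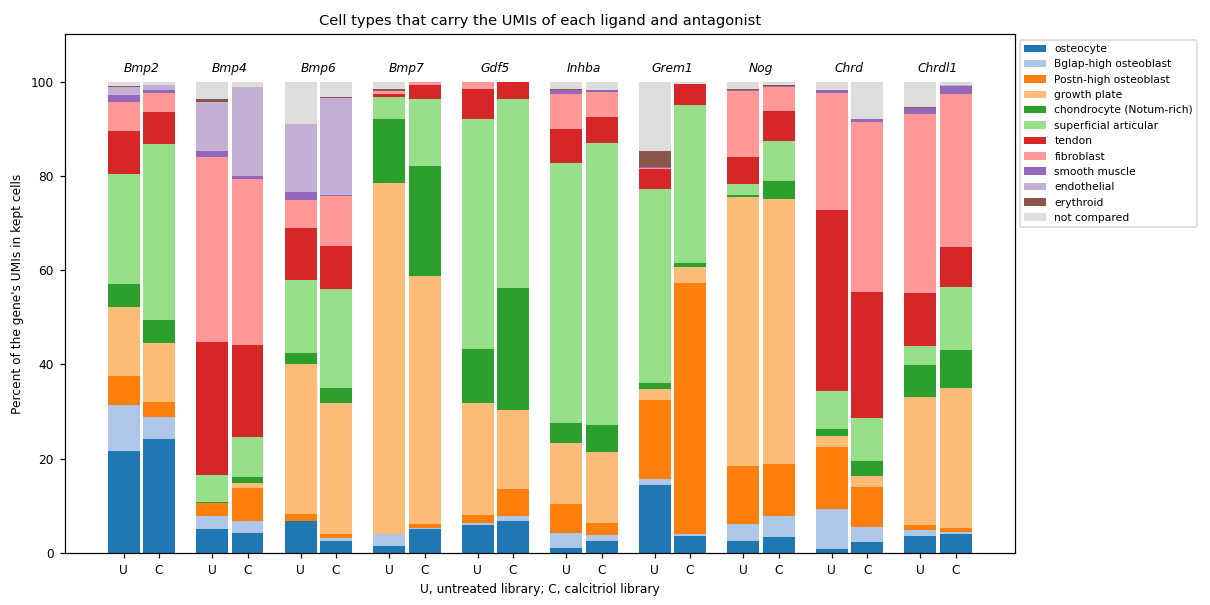
Percent of each gene's UMIs in kept cells that fell in each cell type (stacked bars, vertical axis), for the untreated (U) and calcitriol (C) libraries. The shares depend on how many cells of each type were recovered. Growth plate chondrocyte-like cells carry 57.1% and 56.2% of *Nog* and 74.4% and 52.6% of *Bmp7*, superficial articular chondrocyte-like cells carry 55.1% and 60.0% of *Inhba*, and *Bmp2* is spread over several types.

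*Grem1* (chromosome 2, 113746164 to 113758646, minus strand) encodes gremlin 1, which binds BMP2, BMP4 and BMP7. In superficial articular chondrocyte-like cells its level was 86.0 CPM (76.6 to 96.1) untreated and 24.2 CPM (21.2 to 27.4) with calcitriol. In *Postn*-high osteoblast-like cells it was 28.7 CPM (23.9 to 34.2) and 88.3 CPM (79.7 to 97.6). The types thus changed places between the libraries. The log2 ratio was -1.83 (-2.08 to -1.58) in the former, where 9.78% of all genes were past 2-fold, and 1.62 (1.33 to 1.92) in the latter. Without the top cell of each library the values were -1.96 and 1.43.

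The cells that carried *Grem1* differed between these types. Among superficial articular chondrocyte-like cells 68 of 227 untreated and 57 of 618 calcitriol cells had a UMI, and the shares were 7.62% and 3.09% after thinning. Among *Postn*-high osteoblast-like cells 37 of 241 and 39 of 221 cells had one, so the shares were close while the highest cell held 16 UMIs untreated and 91 with calcitriol. In the *Postn*-high osteoblast-like cells, markers of hypertrophic cartilage summed to 3581 and 10041 CPM and smooth muscle markers to 1068 and 78.6 CPM, and the part of these in the *Grem1* value was not tested.

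Single cells decided *Grem1* in other types. In osteocyte-like cells the level was 68.8 and 8.63 CPM and the log2 ratio -3.00, but all 108 untreated UMIs lay in 1 cell. In erythroid-like cells 25 of 26 UMIs lay in 1 cell. Tendon-like cells held 6.62 and 4.91 CPM, and 19 of the 31 calcitriol UMIs lay in 1 cell, without which the log2 ratio was -1.45. Fibroblast-like cells, which held the most *Bmp4* UMIs, had 1 and 0 UMIs of *Grem1*, and endothelial-like cells had 0 in both libraries.

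A small unnamed cluster held a higher level of *Grem1* than any compared type. It had 33 untreated and 8 calcitriol cells and joined 5 of 5 markers of marrow stroma with 4 of 8 markers of neutrophils, and neutrophil genes led it. Its 21 cells with at least 3 marrow stromal markers held *Cxcl12*, a chemokine of marrow stroma, at 14384 CPM. They carried all 114 *Grem1* UMIs and all 88 *Chrdl1* UMIs of the cluster, and 40 of its *Bmp6* UMIs. The levels were 549.7 CPM for *Grem1*, 424 CPM for *Chrdl1* and 193 CPM for *Bmp6*. Of these cells, 19 were untreated and 2 were from the calcitriol library, so the groups were not compared.

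*Nog* (chromosome 11, 89300638 to 89302332, minus strand) encodes noggin, which joints need to form. Growth plate chondrocyte-like cells led in both libraries, at 52.9 CPM (46.6 to 59.9) and 62.1 CPM (56.6 to 68.0), and carried 57.1% and 56.2% of its UMIs. *Postn*-high osteoblast-like cells were next at 12.5 and 21.2 CPM, without overlap with the growth plate. The log2 ratio in growth plate cells was 0.23 (0.01 to 0.46), and -0.19 after thinning. At resolution 1.2, *Postn*-high osteoblast-like cells led with calcitriol. With clusters past any quality limit left out, a type named chondrocyte-like led untreated and *Postn*-high osteoblast-like cells led with calcitriol.

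Of 8 types with enough UMIs of *Nog*, 3 were past 2-fold higher with calcitriol and 1 was lower. It was higher in *Bglap*-high osteoblast-like cells, at 7.20 and 15.9 CPM, where 8.51% of all genes were past 2-fold. It was also higher in *Notum*-rich chondrocyte-like cells, at 1.40 and 9.52 CPM (2 and 33 UMIs), where 13.9% of all genes were past 2-fold, and in superficial articular chondrocyte-like cells, at 2.78 and 7.23 CPM. It was lower in fibroblast-like cells, at 11.6 and 4.98 CPM, where 8.67% of all genes were past 2-fold. All 4 calls remained without the top cells. Osteocyte markers summed to 1081 and 2192 CPM in the *Bglap*-high osteoblast-like cells, and superficial articular chondrocyte markers to 139 and 1420.5 CPM, 4 of 5 being past 2-fold higher. In the *Notum*-rich cells the latter markers summed to 1186 and 3187 CPM and chondrocyte markers to 38445 and 19277 CPM. The part of these in the *Nog* values was not tested.

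*Chrd* (chromosome 16, 20733127 to 20742384, plus strand) encodes chordin, which is cut by the protease BMP1. It was the lowest of the antagonists and was highest in tendon-like cells, at 17.0 CPM (13.5 to 21.1) and 12.4 CPM (9.77 to 15.4). Fibroblast-like cells followed at 9.89 CPM (7.41 to 12.9) and 12.0 CPM (9.82 to 14.5), below the tendon-like cells untreated and overlapping with calcitriol. After thinning to 2000 UMIs, *Bglap*-high osteoblast-like cells led in both libraries. *Chrd* was past 2-fold in 1 of 5 types, the *Bglap*-high osteoblast-like cells, with 18 and 9 UMIs and a log2 ratio of -1.07 (-2.40 to 0.16), whose interval holds 0. Synovial lining-like cells, too few to compare, held 8.51 and 9.84 CPM.

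*Chrdl1* (chromosome X, 143285674 to 143394262, minus strand), the gene of chordin-like 1, was highest in fibroblast-like and growth plate chondrocyte-like cells. The former held 121 CPM (112 to 130.4) and 103 CPM (96.1 to 109.6), and the latter held 96.5 CPM (87.9 to 106) and 109 CPM (102 to 117). Untreated the fibroblast-like cells were above, and with calcitriol the intervals overlapped. The untreated separation rested on 1 fibroblast-like cell with 127 of the 647 UMIs, and without the top cells the levels were 97.9 and 93.9 CPM. With all cells, *Notum*-rich chondrocyte-like cells followed at 82.5 CPM (68.3 to 98.8) and 66.6 CPM (58.3 to 75.8), overlapping growth plate cells untreated. Tendon-like cells held 39.7 and 37.2 CPM and osteocyte-like cells 38.2 and 38.2 CPM. After thinning, and with every cell given equal weight, growth plate cells led in both libraries. A UMI was found in 72.9% and 71.6% of growth plate cells, whose median depths were 33012 and 30016 UMIs, and in 20.0% and 27.1% of fibroblast-like cells. After thinning the shares were 17.1% and 18.9% against 7.83% and 10.7%. *Chrdl1* was past 2-fold in smooth muscle-like cells, at 30.4 and 61.5 CPM, where 11.9% of all genes were, and in *Bglap*-high osteoblast-like cells, at 9.90 and 4.30 CPM. Without the top cells the log2 ratios went from 1.02 to 0.93 (0.09 to 1.83) and from -1.20 to -0.88 (-2.34 to 0.47), both within 2-fold. In superficial articular chondrocyte-like cells it was 19.2 and 37.6 CPM, a log2 ratio of 0.97 (0.60 to 1.36) that was 1.01 without the top cells.

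**Figure D3:**
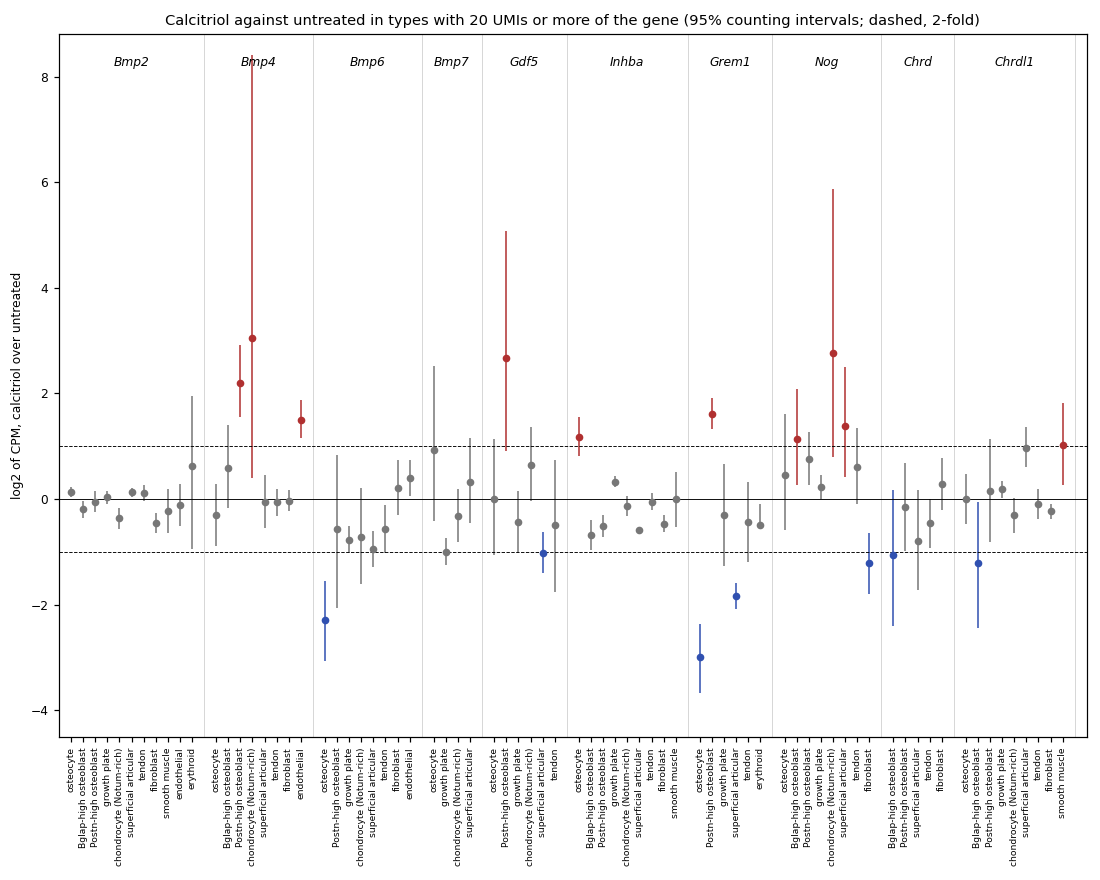
Log2 ratio of CPM, calcitriol over untreated (vertical axis), for each gene in each type with at least 20 UMIs, with 95% counting intervals as bars and dashed lines at 2-fold. Red points are past 2-fold higher, blue points past 2-fold lower and grey points within 2-fold, and *Bmp2* is grey in all 11 types while *Grem1* is red in *Postn*-high osteoblast-like cells and blue in superficial articular chondrocyte-like cells.

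Over the 10 genes, 74 pairs of a gene and a type had at least 20 UMIs, of which 10 were past 2-fold higher with calcitriol and 7 lower. Of these calls, 11 remained without the top cell of each library. In bone types, the calls lost were *Gdf5* in *Postn*-high osteoblast-like, *Grem1* in osteocyte-like and *Chrdl1* in *Bglap*-high osteoblast-like cells. In other types they were *Bmp4* in *Notum*-rich, *Gdf5* in superficial articular chondrocyte-like and *Chrdl1* in smooth muscle-like cells. The leading type was the same in both libraries for 5 of 10 genes, *Bmp2*, *Bmp7*, *Inhba*, *Nog* and *Chrd*. In the type that led over both libraries, 2 of 10 were past 2-fold, *Bmp4* and *Grem1*, where 7.61% and 9.23% of all genes were. That type was picked by levels that include the calcitriol library, so the count is not independent of the difference. In the types that led untreated, the log2 ratio was -0.03 for *Bmp4* (fibroblast-like) and -1.83 for *Grem1* (superficial articular chondrocyte-like). The counts are set by type beside the share of all genes past 2-fold in the same direction. In *Postn*-high osteoblast-like cells, 3 of 9 genes were higher against 5.35% of all genes, and 0 lower against 3.88%. In *Bglap*-high osteoblast-like cells, 1 of 6 genes were higher against 4.52% of all genes, and 2 lower against 3.99%. In osteocyte-like cells, 1 of 9 genes were higher against 7.34% of all genes, and 2 lower against 4.48%. These bone types gave 9 of the 17 calls, and the counts by type include the calls lost without the top cells. In superficial articular chondrocyte-like cells, 1 of 10 genes were higher against 5.07% of all genes, and 2 lower against 4.71%. In *Notum*-rich chondrocyte-like cells, 2 of 8 genes were higher against 7.77% of all genes, and 0 lower against 6.1%. In growth plate chondrocyte-like cells, 0 of 8 genes were higher against 4.97% of all genes, and 0 lower against 5.17%. The cartilage types gave 5. In tendon-like cells, 0 of 9 genes were higher against 4.64% of all genes, and 0 lower against 5.42%. These cells joined unlike clusters. In the cluster led by *Angptl7* and *Kera*, the log2 ratio was -1.19 (-1.88 to -0.53) for *Bmp6* and 1.16 (-0.05 to 2.53) for *Nog*. In the cluster led by *Igfbp2* and *Sfrp2* it was -1.43 (-2.76 to -0.22) for *Chrd*. The other values with enough UMIs in the tendon-like clusters were within 2-fold. In fibroblast-like cells, 0 of 7 genes were higher against 4.51% of all genes, and 1 lower against 4.16%. In smooth muscle-like cells, 1 of 3 genes were higher against 6.33% of all genes, and 0 lower against 5.58%. Only 1 call each came from fibroblast-like and smooth muscle-like cells. In endothelial-like cells, 1 of 3 genes were higher against 3.32% of all genes, and 0 lower against 4.29%. In erythroid-like cells, 0 of 2 genes were higher against 2.67% of all genes, and 0 lower against 40.9%. In either direction, 43.6% of all genes were past 2-fold in erythroid-like cells. 

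Genes of the glucocorticoid response summed to levels 1.53 to 2.98 times higher in the calcitriol library in 10 of 10 types other than erythroid-like cells, and haemoglobin to lower levels in 10 of 10. Genes of dissociation stress were higher in 9 of 10 of these types, with ratios of 0.986 to 1.74. Markers of superficial articular chondrocytes were higher in 8 of 9 types other than their own and erythroid-like cells, with ratios up to 10.3, and lower in smooth muscle-like cells, with a ratio of 0.140. The part of these in the values above was not tested.

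Within the growth plate cluster the genes differed with the stage of the cells. The 107 cells with at least 2 UMIs of *Col10a1* and *Ihh*, markers of the prehypertrophic and hypertrophic stages, had a median of 45099 UMIs, and the 269 other cells had 28047. *Bmp2* stood at 386 CPM in the former and 99.2 CPM in the latter, *Bmp6* at 88.6 and 11.7 CPM, and *Nog* at 101 and 32.3 CPM. These 3 were therefore higher in the cells with *Col10a1* and *Ihh*. *Bmp7* stood at 17.1 and 56.9 CPM and *Inhba* at 137 and 316 CPM, higher in the other cells. The intervals did not overlap for any of these 5 genes, and the direction was the same in each library. *Bmp7* was lower with calcitriol in both sets, at 29.8 and 10.6 CPM in the former and 75.3 and 43.7 CPM in the latter.

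**Figure D4:**
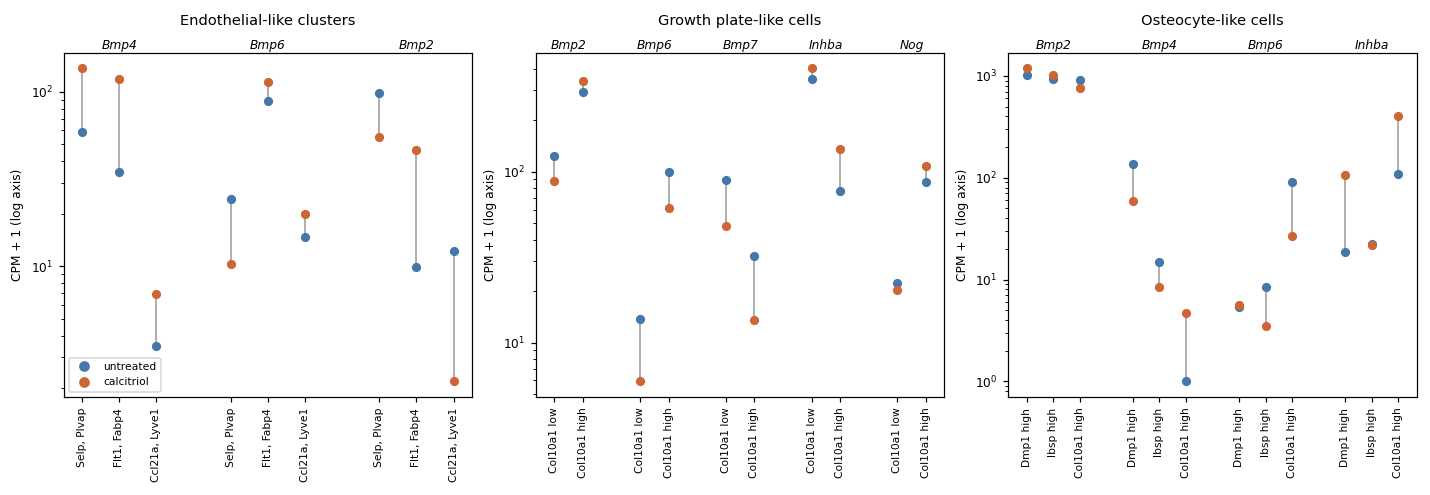
Levels (CPM + 1, log axis) in the clusters that divide endothelial-like cells and in the finer clusters of growth plate-like and osteocyte-like cells, untreated in blue and calcitriol in orange. The *Col10a1*-high cells of the growth plate and osteocyte panels belong to the same finer cluster. *Bmp4* is higher with calcitriol in the *Selp* cluster (57.8 and 135 CPM) and the *Flt1* cluster (33.7 and 118 CPM), and *Bmp2* lies between 765 and 1181 CPM in every division of the osteocyte-like cells.

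For each of the 10, the genes of most similar level over the 24 clusters were sought among 11903 genes by Pearson's r of log2(CPM + 10). The clusters share libraries and depth, so r is a description. For *Bmp2* they were *Bahcc1* (0.93), *2810457G06Rik* (0.92) and *Cnnm4* (0.92), for *Bmp4* *Eogt* (0.89), *Ptprg* (0.84) and *Ric1* (0.83), and for *Bmp6* *Itpr2* (0.85), *Zfp955a* (0.85) and *Gm9993* (0.83). For *Bmp7* they were *Ptgds* (0.93), *Fhad1* (0.91) and *Ccdc62* (0.90). *Gdf5* was closest to *Rab11fip4* (0.95), *Zdhhc23* (0.92) and *Notum* (0.91), an extracellular Wnt inhibitor, and *Inhba* to *Sobp* (0.94), *Maged2* (0.93) and *Vit* (0.93). *Grem1* was closest to *Hp* (0.84), *Glipr1* (0.84) and *Glrx* (0.83), and *Nog* to *Cpa6* (0.93), *H2-DMb1* (0.91) and *Runx3* (0.88), a regulator of cartilage maturation. *Hp* was among the 10 leading genes of the small unnamed cluster rich in *Grem1*, and the part of that cluster in the *Grem1* values was not tested. *Chrd* was closest to *Gsc* (0.97), the homeobox gene goosecoid, *Gng4* (0.90) and *Ndrg4* (0.90), and *Chrdl1* to *Arap1* (0.85), *Gm28809* (0.85) and *Emb* (0.84). Among the 10 genes the closest pair was *Bmp2* and *Inhba* (0.81).

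The other genes of the pathway came from lists of 11 ligands, 11 antagonists, 13 receptors, 6 signal transducers and 10 targets. The lists are not pure classes, since that of ligands holds the protease gene *Bmp1* and that of antagonists holds *Bambi*. Of these 51 genes, 48 had enough UMIs in the type where they were highest, and 3 were past 2-fold higher there and 2 lower. Of all genes, 3.32% to 7.77% were past 2-fold higher and 3.88% to 6.1% lower in the types other than erythroid-like cells. In the types where the 48 were highest, their counts were close to these shares. In osteocyte-like cells, singled out after their values were seen, 4 of 6 antagonists and 4 of 9 receptors were past 2-fold higher. The counts were 2 of 6 for ligands, 1 of 8 for targets and 0 of 5 for signal transducers, against 7.34% of all genes. There 1 of 9 receptors was lower and 0 of the other lists, against 4.48% of all genes. The makeup of these cells differed between the libraries, with osteocyte markers at 2825 and 6227 CPM and hypertrophic cartilage markers at 12198 and 3205 CPM. The part of this in these counts and in the *Bambi* value below was not tested. The 48 genes had a median log2 ratio of 0.04, and the median over all genes lay between -0.11 and 0.06 in the types other than erythroid-like cells. The ligand *Gdf6* was higher in superficial articular chondrocyte-like cells, at 5.56 and 20.2 CPM, a log2 ratio of 1.86 (1.19 to 2.60). The ligand *Gdf10* was lower there, at 136 and 33.9 CPM, a log2 ratio of -2.01 (-2.21 to -1.80), and was past 2-fold lower in 6 of 10 types. *Bambi*, a decoy receptor, was higher in osteocyte-like cells, at 117 and 259.5 CPM, a log2 ratio of 1.15 (0.92 to 1.39). The homeobox targets *Msx1* and *Msx2* were past 2-fold higher in smooth muscle-like cells (26.2 and 61.5 CPM) and lower in superficial articular chondrocyte-like cells (15.6 and 4.82 CPM), respectively.

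*Fst*, which encodes the activin-binding protein follistatin, was highest in smooth muscle-like cells, at 957 and 1268 CPM, within 2-fold. It was nonetheless higher with calcitriol in 10 of 10 types with enough UMIs and past 2-fold in 8 of them. In *Postn*-high osteoblast-like cells it was 16.0 and 162 CPM, a log2 ratio of 3.34 (2.99 to 3.72), and in tendon-like cells 59.6 and 231 CPM, a log2 ratio of 1.95 (1.77 to 2.14). *Tgfbr3*, the coreceptor betaglycan, was past 2-fold higher in 7 of 10 types, a gene singled out after its values were seen. The types come from the same 2 libraries, so the counts of types for *Fst*, *Tgfbr3* and *Gdf10* are not independent repeats. The share of all genes past 2-fold in as many types was not computed. The part of the glucocorticoid, stress and marker differences in these genes was not tested. The receptor genes *Eng*, a coreceptor of endothelium, and *Bmpr1b* stayed within 2-fold where they were highest, at 445 and 366 CPM in endothelial-like cells and 12.8 and 8.24 CPM in tendon-like cells. The targets *Id1* (277 and 405 CPM in superficial articular chondrocyte-like cells) and *Id3* (956 and 1593 CPM in tendon-like cells) did so too. *Id3* was above a log2 ratio of 0 in 10 of 11 types and past 2-fold in 0.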

How the data were processed

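Single-cell RNA was measured in 2 libraries, untreated and calcitriol, each pooled from 6 mice. The deposited matrices hold UMI counts per gene and cell that the authors made with Cell Ranger 4.0.0 against mm10; the annotation release is not given in the sources used here, and the submitters' processing notes also name Seurat 3.2.2. No column was left unmapped (0). The BMP and activin genes, the lists and the alternatives were chosen with earlier results of these data known.

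After the study's methods, barcodes under 200 genes were left out, each library was clustered alone, and 1 cluster per library that was past every limit (over 10% mitochondrial UMIs, under 1000 genes, under 2000 UMIs) was left out, 197 and 227 cells. Anchors over the 2000 most variable genes joined the libraries, and clusters were drawn from 30 principal components (resolution 0.8; R 4.3.3, Seurat 5.3.0). The 157 (3.54%) and 109 (2.95%) cells with the highest doublet scores were marked and kept. Their number was set in advance by an assumed rate of 0.8% per 1000 cells, not by the scores. Types were named where at least 3 markers of a list were raised, by a rule set after the clusters were seen, so names may differ from the study's.

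With 1 library per group no test was run. UMIs were summed per type and library (Python 3.11.15, scipy 1.17.1), with exact Poisson intervals for levels and exact conditional binomial intervals for ratios, both for counting error only, and 0 counts were taken to allow 3. The interval code was tested on simulated Poisson counts without spread between cells, which cannot show how it fares where single cells hold many UMIs. Pathway genes named beyond the 10 were list genes past 2-fold in their highest type, *Eng*, *Id1*, *Id3*, *Fst* and *Bmpr1b*, and *Tgfbr3*, which was chosen after its values were seen. The 3 genes of closest level were named for each of the 10. Alternatives changed the resolution, components, clustering genes, cluster limits, doublets, depth, totals, weighting and UMI minimum. Leaving out the top cell was chosen after seeing the data. Gene coordinates come from an annotation of GRCm38, and promoter windows from RefSeq, where 5 of the 10 genes were matched.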

Additional observations from a re-analysis of the deposited data

Results flagged for a closer look

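*Grem1* moved in opposite directions in different types. The log2 ratio, calcitriol over untreated, was 1.62 in *Postn*-high osteoblast-like cells and -1.83 in superficial articular chondrocyte-like cells. *Nog* did so as well, with 2.77 in *Notum*-rich chondrocyte-like cells and -1.22 in fibroblast-like cells. With 1 library per group these differences between types were not tested.

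The clusters left out for high mitochondrial share and low counts still held UMIs of the 10 genes, 111 in the untreated and 206 in the calcitriol library, which enter no value of the report.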

How the results depend on the processing

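Of the 10 genes, 2 were past 2-fold in their leading type, which was picked by the levels of both libraries. The number was 1 at resolution 0.5, 1 with 20 principal components and 1 with the mean of the cells' own CPM. In the first pair of settings the osteoblast-like clusters merged, so the type that led for *Grem1* had no value. The number was 3 with haemoglobin and mitochondrial genes left out of the totals, and 2 under the other 8 alternatives. The leading type was the same in both libraries for 5 to 7 genes, and 7 to 10 kept their leading type. With clusters past any limit left out, 7 kept it, and the log2 ratio of *Grem1* in *Postn*-high osteoblast-like cells was 1.19. After thinning that ratio was 2.24. Thinning to 2000 UMIs moved the ratio in the leading type outside its counting interval for 7 of the 10 genes and turned its sign for *Bmp2* (-0.03), *Gdf5* (-0.70), *Nog* (-0.19) and *Chrdl1* (0.18). The mean of the cells' own CPM moved 4 outside, *Bmp2* (-0.03), *Bmp4* (0.83), *Inhba* (-0.72) and *Chrdl1* (0.06). No paired analysis was possible because each group is 1 library. Intervals cover counting error only, and differences between animals cannot be seen in pooled cells.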
